A study of Zea mays with 12 samples.

Results

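The comparison was between whole endosperm of the maize mutant labelled nkd1-Ds and of wild type (WT), both at 16 days after pollination, across all genes that could be measured. A gene entered when its mean was at least 1 RPKM (reads divided by gene length and by a library factor of the authors) in WT or in nkd1-Ds, which held for 26281 of 34348 genes. Each group had 4 libraries, called biological replicates by the series, from field-grown, selfed plants of the inbred line W22. Another group, nkd2-Ds, with 4 libraries of the same line and age, is given for reference. Ds is a maize transposon, and each mutant is named for a Ds insertion in the gene of its name. The series presents both as single mutants, and no other allele or treatment is given in the labels.

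Maize nkd1 and nkd2 (naked endosperm) are duplicate genes whose products are transcription factors with zinc fingers of the INDETERMINATE domain type. They are known for their part in forming the aleurone, the outer cell layer of the endosperm, and in the maturation of the starchy cells beneath it. Starchy endosperm cells fill with starch and with zeins, the prolamin storage proteins of maize. The tissue is a bulk of these and other cells, so fewer cells of a type and less RNA per cell cannot be told apart in any value below.

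The 8 libraries held 37.6 to 48.0 megareads on genes, and the median SD of a gene on the log2 scale was 0.120 in WT and 0.119 in nkd1-Ds. On the component of a principal component analysis that took the most variance, 56.95%, WT lay at -54.9 to -48.3 and nkd1-Ds at 50.2 to 54.6. WT replicates 1 and 2 were close to each other, as were 3 and 4 (chi-square per gene 8.04 and 9.38, against 24.2 to 30.5 for the other WT pairs), and the labels give no reason for it. Differences below are of log2(RPKM + 1) with their standard error (SE); on this scale changes of low genes look smaller than they are. A gene is called when its Benjamini-Hochberg adjusted p from limma, over all 26281 genes, was under 0.05. The 15 matched markers of starchy endosperm summed to at least 70330 RPKM in each of the 8 libraries. The 2 of embryo summed to at most 14.6 RPKM and the 4 of pericarp and green tissue to at most 3.53 RPKM. These sums cover unlike numbers of genes, so they do not measure the share of each tissue.

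The targeted gene was low in the mutant libraries, and so was its duplicate. nkd1 (GRMZM2G129261) stood at 45.3, 52.1, 51.96 and 47.3 RPKM in WT replicates 1 to 4 and at 14.4, 12.4, 12.2 and 12.04 RPKM in those labelled nkd1-Ds. The log2 difference was -1.87 ± 0.0684 (limma adjusted p = 2.17e-10), and the groups did not overlap. nkd2 (GRMZM5G884137) stood at 18.9, 19.1, 20.6 and 19.4 RPKM in WT and at 1.08, 1.01, 1.14 and 1.19 RPKM in those labelled nkd1-Ds. Its fall of 3.29 ± 0.0698 on the log2 scale was the larger of the pair, and its level did not pass a direct test against nkd2-Ds, where it was 1.15 ± 0.141 RPKM (log2 -0.03, limma adjusted p = 0.788). Since both transcripts were low, each direction below holds for libraries low in nkd1 and nkd2 together, and what either gene adds cannot be told apart here.

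**Figure D1:**
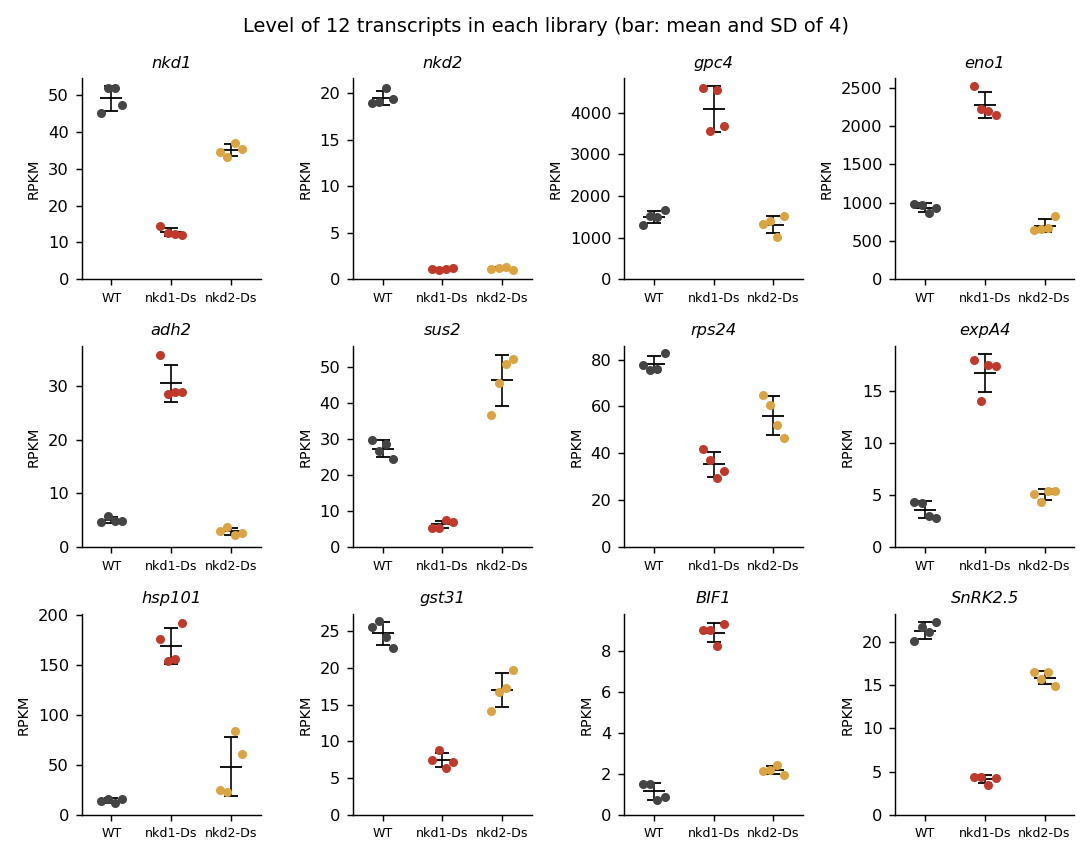
Level in RPKM of 12 transcripts in each of the 4 libraries of WT, nkd1-Ds and nkd2-Ds (points), with the mean and SD of each group (bars); every vertical axis starts at 0. nkd2 is near 1 RPKM in both mutants, whereas nkd1 is lowest in nkd1-Ds; gpc4, eno1, adh2, expA4, hsp101 and BIF1 are higher and sus2, rps24, gst31 and SnRK2.5 lower in nkd1-Ds than in WT, with no overlap.

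The response was broad, near even in direction and mostly modest in size. Of the 26281 genes, 14823 were called (56.4%), 7071 of them higher (26.9%) and 7752 lower (29.5%) relative to WT. At least a 2-fold difference was found for 1187 called genes that were higher (4.52%) and 1094 that were lower (4.16%). Past 4-fold the counts were 248 higher and 157 lower, and past 8-fold 67 higher and 52 lower. The 4 values of one group lay apart from the 4 of the other for 13542 genes (51.5%). The even split belongs to the authors' scaling: with libraries scaled by total reads, 89.3% of calls were higher against 47.7% as deposited, and the median of all genes moved by 0.45 on the log2 scale. Scaled by reads outside the zeins, meaning 29 named zein genes, 65.5% of calls were higher and the median moved by 0.14. List medians, where given, are therefore relative to the median of all genes under the scaling named, while list counts and single genes are not corrected for that shift. As deposited, list counts stand beside the 26.9% higher and 29.5% lower of all genes. With total-reads scaling they stand beside 16633 genes called higher and 2003 lower, so most lists lean higher there. Members under 1 RPKM in WT or in nkd1-Ds were tested only through the other group, so their direction leans on the filter.

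**Figure D2:**
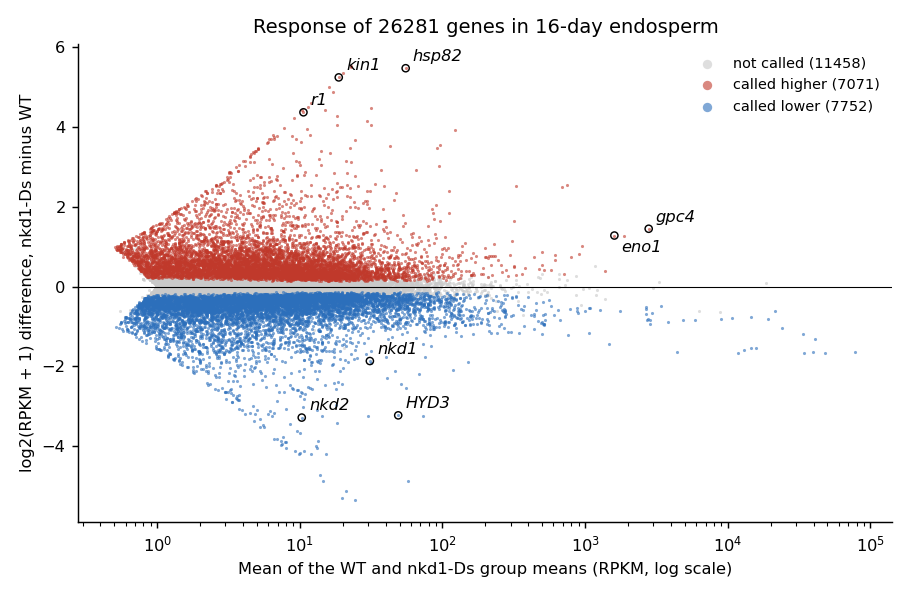
Difference of log2(RPKM + 1), nkd1-Ds minus WT, against the mean of the 2 group means in RPKM on a log axis, 1 point for each of 26281 genes; red points are the 7071 called higher, blue the 7752 called lower and grey the rest. Circles mark 8 genes described in the text, and the genes above 1000 RPKM lie mostly below 0.

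The most abundant transcripts leaned one way. Among 49 genes above 1000 RPKM, 71.4% were called lower and 8.16% higher, with a median difference of -0.753. From 100 to 1000 RPKM the shares were 48.3% lower and 20.7% higher over 474 genes. From 20 to 100 RPKM they were 34.0% lower and 25.7% higher over 3463 genes. From 5 to 20 RPKM they were closer, at 29.1% lower and 27.9% higher over 9366 genes. The 20 most abundant genes of each library took 47.6% to 53.1% of the reads in WT and 31.0% to 33.2% in the libraries labelled nkd1-Ds.

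Storage protein transcripts gave up the largest part of the reads. The 29 zein genes took 42.5%, 42.1%, 48.3% and 47.2% of reads in WT and 29.1%, 28.7%, 27.3% and 28.2% in the libraries labelled nkd1-Ds (exact two-sided permutation p = 0.0286, the smallest that 4 against 4 allows). Of the 29, 24 were called lower and 0 higher, 14 and 1 with total-reads scaling, and 11 and 4 after quantile normalization, where the median relative to all genes went from -0.83 to -0.18. One ID that RefSeq gives to a pair of alpha zein copies, z1A1_3 and z1A1_4, went from 13.2% ± 0.910 to 6.13% ± 0.240 of all reads. Zein copies are near identical and share reads, so a single copy is uncertain. The 29 are named zeins only. Outside them, 6 unannotated gene models with IDs beginning AF546188 went from 6.58% ± 0.386 of reads in WT to 3.85% ± 0.247 in nkd1-Ds. Whether these 6 code for zeins was not tested. zp27, the 27-kDa gamma zein, went the other way in share, from 2.49% ± 0.158 to 3.88% ± 0.229 of reads, although its level on the authors' scale was not called (17880 ± 472 RPKM in WT and 19130 ± 1923 RPKM). It was called higher with total-reads scaling (log2 0.64) and after quantile normalization (log2 1.37). The groups did not overlap in the zein share.

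Behind zp27, the genes that gained the most share were of glycolysis. The glyceraldehyde-3-phosphate dehydrogenase genes gpc4 and gpc3 went from 0.200% ± 0.0140 to 0.805% ± 0.111 and from 0.128% ± 0.0202 to 0.450% ± 0.0601 of reads. eno1, an enolase gene, went from 0.131% ± 0.0173 to 0.464% ± 0.0207. Together the 15 genes of glycolysis and fermentation rose from 0.813% ± 0.0871 to 2.36% ± 0.224 of reads (exact two-sided permutation p = 0.0286, the smallest possible). The starch synthesis genes, by contrast, took 2.82% ± 0.165 of reads in WT and 3.12% ± 0.189 in nkd1-Ds, a difference that did not pass (exact p = 0.0571).

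**Figure D3:**
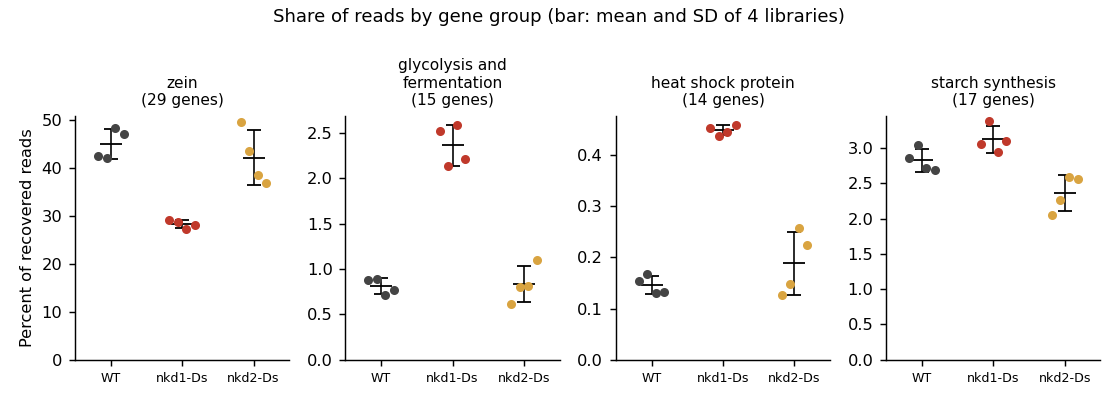
Share of recovered reads, in percent, taken by 29 zein, 15 glycolysis and fermentation, 14 heat shock protein and 17 starch synthesis genes in each library (points), with the mean and SD of 4 libraries (bars). The zein share is lower in all 4 nkd1-Ds libraries than in any WT library, the glycolysis and heat shock shares are higher, and the starch shares overlap.

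Among tested genes, glycolysis and fermentation split from the entry of sucrose. Glycolysis breaks hexose phosphates down to pyruvate, and fermentation turns pyruvate into ethanol when oxygen is short. Of its 15 listed genes 11 rose and 0 fell (26.9% of all genes rose), with a median of 0.45 relative to all genes and of 0.54 with total-reads scaling, where all 15 were called higher. gpc4 stood at 1297, 1520, 1489 and 1659 RPKM in WT and 4590, 3551, 4539 and 3684 RPKM in those labelled nkd1-Ds. On the log2 scale gpc4 rose by 1.45 ± 0.143 (limma adjusted p = 2.21e-06), gpc3 by 1.27 ± 0.131 and eno1 by 1.28 ± 0.1002, each without overlap between the groups. In nkd2-Ds gpc4 was 1312 ± 214, gpc3 862 ± 124 and eno1 699.6 ± 88.4 RPKM, and the direct difference between the mutants passed for each, for example by log2 1.65 for gpc4 (limma adjusted p = 1.97e-06). gpc3 and gpc4 are close copies, so the split of reads between them is uncertain.

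Genes of fermentation were less abundant. adh2, an alcohol dehydrogenase gene induced by low oxygen, stood at 4.71, 5.82, 4.88 and 4.80 RPKM in WT and 35.8, 28.7, 28.9 and 28.9 RPKM in those labelled nkd1-Ds, a rise of 2.38 ± 0.112 (limma adjusted p = 2.54e-09). Its more abundant relative adh1 stood at 447 ± 36.8 and 555 ± 65.3 RPKM and was not called (log2 0.31 ± 0.136, limma adjusted p = 0.0700), although its groups did not overlap. It was called higher under 5 alternatives: total reads (log2 0.86), reads outside zeins (0.47), quantile normalization (0.52), only the 8 libraries compared and voom. The pyruvate decarboxylase genes pdc3 and pdc2 rose from 41.4 to 88.05 RPKM and from 82.5 to 125 RPKM. aox1, the gene of the mitochondrial alternative oxidase, was 0.211, 0.155, 0.154 and 0.0407 RPKM in WT and 3.14, 2.47, 3.54 and 3.56 RPKM in those labelled nkd1-Ds (log2 1.87 ± 0.108, limma adjusted p = 1.79e-08).

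Tested genes that bring sucrose and hexose into metabolism went the other way, with 5 of 7 lower and 0 higher (29.5% of all genes fell). With total-reads scaling 3 were lower. A further 4 members, ivr2, IVR1, incw1 and sps1, were too low to test, and each had a higher mean in nkd1-Ds than in WT. Sucrose synthase splits sucrose for starch synthesis. sus2 stood at 29.8, 26.6, 28.6 and 24.3 RPKM in WT and 5.41, 5.26, 7.38 and 6.99 RPKM in those labelled nkd1-Ds (log2 -1.97 ± 0.122, limma adjusted p = 3.44e-08), while nkd2-Ds was above WT at 46.3 ± 7.04 RPKM. sus1 fell from 123 to 43.9 RPKM and sh1, the shrunken1 sucrose synthase, from 3299 to 2047 RPKM. The call for sh1 was lost with total-reads scaling and after quantile normalization. frk1, a fructokinase gene, fell from 6.28 to 1.96 RPKM. Of 16 starch synthesis genes 8 were lower and 2 higher as deposited, but 1 was lower and 10 higher with total-reads scaling, so the counts give no direction. Their median relative to all genes was -0.15 under both scalings and -0.06 after quantile normalization. zpu1, a pullulanase-type debranching enzyme gene, had the largest difference in the list (log2 -0.88 ± 0.174).

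In the tricarboxylic and glyoxylate cycles 3 of 11 genes rose and 2 fell, near the background. ICL, which codes for isocitrate lyase of the glyoxylate cycle, was 7.13, 7.83, 9.44 and 7.58 RPKM in WT and 1.74, 1.52, 1.91 and 1.35 RPKM in those labelled nkd1-Ds, and 18.1 ± 5.92 RPKM in nkd2-Ds. It fell by 1.77 ± 0.190 (limma adjusted p = 4.64e-06), and it was lower than in nkd2-Ds by a direct test (log2 -2.80, limma adjusted p = 2.01e-07).

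Genes of the cytosolic ribosome mostly fell. Of 26 ribosomal protein genes known by name, 23 fell and 0 rose, with a median of -0.64 relative to all genes. Under total-reads scaling the counts were 11 lower and 4 higher, and the relative median was -0.58. rps24 stood at 77.8, 75.6, 76.2 and 83.03 RPKM in WT and 41.9, 37.1, 29.4 and 32.7 RPKM in those labelled nkd1-Ds (log2 -1.14 ± 0.112, limma adjusted p = 2.24e-06). RPS21 fell from 44.97 to 20.2 RPKM, without overlap. A pair of rps4 IDs fell alike, from 203 to 107 RPKM and from 178 to 96.1 RPKM. Ribosomal protein genes have close copies in maize, and reads of copies may not have been told apart. In nkd2-Ds rps24 was 56.1 ± 8.23 RPKM, above the libraries labelled nkd1-Ds by a direct test (log2 -0.66, limma adjusted p = 5.17e-04).

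Heat shock genes rose strongly. These code for chaperones that hold or refold proteins, and they are under heat shock transcription factors. Of 14 heat shock protein genes 11 rose and 1 fell (0 fell after scaling by total reads); their median was 1.5 relative to all genes, and 1.58 when total reads set the scale. hsp82, of the HSP90 class, stood at 1.52, 2.81, 0.629 and 1.34 RPKM in WT and 104, 104, 107 and 121 RPKM in those labelled nkd1-Ds. hsp101, of the disaggregase class, stood at 13.5, 15.8, 11.7 and 16.2 RPKM in WT and 176, 154, 156 and 192 RPKM in those labelled nkd1-Ds (log2 3.48 ± 0.327, limma adjusted p = 1.42e-06). In nkd2-Ds it was 24.8, 22.7, 84.2 and 61.4 RPKM, where replicates 3 and 4 lay far above replicates 1 and 2. hsp22 showed the same pattern, at 253, 235, 216 and 214 RPKM in those labelled nkd1-Ds and 20.2, 19.9, 79.1 and 68.4 RPKM in nkd2-Ds. The 4 libraries labelled nkd1-Ds were close together for both genes, with no overlap with WT or nkd2-Ds. HSP90-1 rose from 14.1 to 177 RPKM, hsp1 from 14.97 to 80 RPKM and hsp18c from 9.03 to 39.6 RPKM.

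All 7 heat shock transcription factor genes tested were called, 5 higher and 2 lower, although with total-reads scaling none was called lower and both of the 2 changed sign. Of the 5, 3 were under 1 RPKM in WT and were tested only because they were high in nkd1-Ds. Hsf26 stood at 0.621, 0.553, 0.510 and 0.567 RPKM in WT and 11, 11.2, 12.7 and 14.1 RPKM in those labelled nkd1-Ds (log2 3.08 ± 0.144, limma adjusted p = 2.35e-09). Hsf03 rose from 0.848 to 4.12 RPKM and Hsf17 from 1.98 to 3.85 RPKM. The 2 that were lower, Hsf12 and HSF29, differed little, at log2 -0.31 ± 0.0811 and -0.26 ± 0.0789.

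The folding machinery of the endoplasmic reticulum, through which zeins pass, divided. Of 17 genes 11 rose and 3 fell (15 higher and 2 lower with total-reads scaling), where 26.9% of all genes rose and 29.5% fell as deposited. crt2, a calreticulin gene, stood at 64.6, 62.4, 62.1 and 57.6 RPKM in WT and 157, 147, 145 and 141 RPKM in those labelled nkd1-Ds (log2 1.24 ± 0.0619, limma adjusted p = 4.40e-09). pdi8, of the protein disulfide isomerase family, rose from 37.3 to 66.5 RPKM and bip2, a binding protein gene, from 52.8 to 89.5 RPKM. Both IDs named PDIL5-1, of the same isomerase family, fell instead. GRMZM2G443655 stood at 74.8, 76.3, 80.5 and 72.1 RPKM in WT and 11.7, 19.5, 18.02 and 18.5 RPKM in those labelled nkd1-Ds, and was 15.8 ± 3.05 RPKM in nkd2-Ds. The other, GRMZM2G073628, fell from 115 to 49.3 RPKM. For GRMZM2G443655 the direct difference between the mutants did not pass (log2 0.09, limma adjusted p = 0.658).

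**Figure D4:**
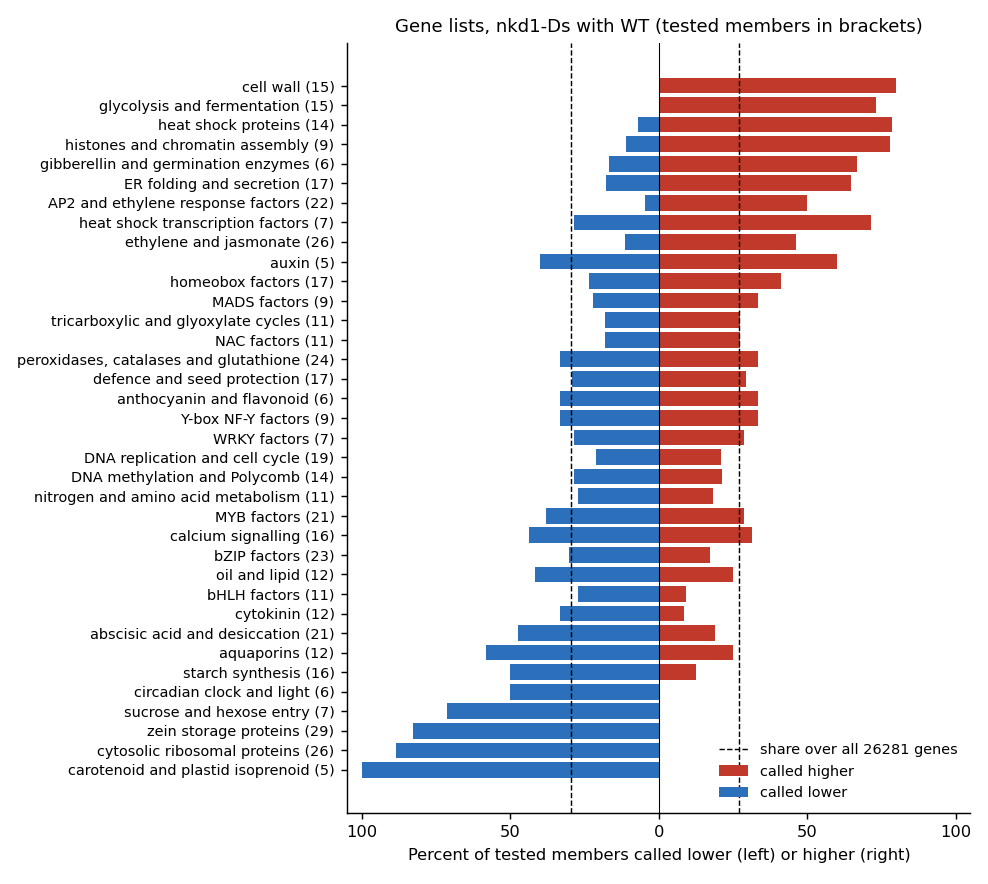
Percent of the tested members of each gene list that were called higher (red, right) or lower (blue, left) in nkd1-Ds than in WT, with the number tested in brackets; dashed lines mark the shares over all 26281 genes, 26.9% higher and 29.5% lower. Cell wall, glycolysis, heat shock and histone lists lie far to the right, and zein, ribosomal protein and carotenoid lists far to the left.

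Cell wall genes rose in 12 of 15 cases and fell in 0, under total-reads scaling in 15 of 15, with a median of 0.64 relative to all genes. Expansins loosen the wall as cells extend. expA4 stood at 4.33, 4.26, 3.005 and 2.83 RPKM in WT and 17.9, 14.1, 17.5 and 17.4 RPKM in those labelled nkd1-Ds (log2 1.96 ± 0.120, limma adjusted p = 3.33e-08). expB2 rose from 2.72 to 14.6 RPKM and expB8, at 8.91 ± 2.78 RPKM in WT, to 15.97 ± 2.161 RPKM. The cellulose synthase gene cesa2 stood at 9.98, 11.1, 9.66 and 9.86 RPKM in WT and 18.97, 17.19, 19.6 and 17.9 RPKM in those labelled nkd1-Ds, without overlap. Bk2L3, of the COBRA family named after brittle stalk2, rose from 15.4 to 31.7 RPKM.

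Histone genes rose in 7 of 9 cases and fell in 1, with a median of 0.67 relative to all genes. his2a1, a histone H2A gene, stood at 69.8, 65.96, 77.8 and 77.2 RPKM in WT and 198, 133, 113 and 118 RPKM in those labelled nkd1-Ds. his2b2, a histone H2B gene, stood at 16.3, 18.8, 20.8 and 21.6 RPKM in WT and 54.4, 38.1, 29.1 and 33.4 RPKM in those labelled nkd1-Ds. Replicate 1 was the highest of the libraries labelled nkd1-Ds for both, and the groups still did not overlap. H3C2 rose by 0.89 ± 0.174 (limma adjusted p = 7.27e-04). The gene that fell, his1a of the linker histone H1 class, had overlapping groups (log2 -0.26 ± 0.0934), and its sign changed with total-reads scaling. Its call was also lost outside zeins, after quantile normalization, with WT pairs averaged and without any one of 6 libraries (limma adjusted p = 0.0654 to 0.0820).

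The wider cell cycle list did not share that direction: 4 of 19 genes rose and 4 fell, below the background of 26.9% and 29.5%, although 14 were higher after scaling by total reads. Its clearest members were a kinase and a cyclin. The ID named cdc2 stood at 3.54, 3.38, 3.13 and 3.08 RPKM in WT and 11.7, 12.8, 12.1 and 11.3 RPKM in those labelled nkd1-Ds (log2 1.59 ± 0.0817, limma adjusted p = 5.59e-09). cycD1, a D-type cyclin gene, had no read in WT replicates 1 to 3 and 0.0562 RPKM in replicate 4, against 1.163, 1.22, 1.49 and 1.06 RPKM in those labelled nkd1-Ds. The replication genes MCM6 and orc3 differed by log2 0.35 ± 0.103 and -0.38 ± 0.0944. Among 14 genes of DNA methylation and Polycomb 3 rose and 4 fell, and none by 2-fold.

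Of the 10 listed auxin genes 5 were tested, of which 3 rose and 2 fell, where 26.9% of all genes rose and 29.5% fell. BIF1, an AUX/IAA repressor of auxin signalling, stood at 1.53, 1.497, 0.730 and 0.850 RPKM in WT and 9.07, 9.04, 8.24 and 9.34 RPKM in those labelled nkd1-Ds (log2 2.23 ± 0.119, limma adjusted p = 8.94e-09). PIN9, an auxin efflux carrier gene, had no read in any WT or nkd2-Ds library and stood at 1.93, 1.64, 1.43 and 1.30 RPKM in those labelled nkd1-Ds. PIN9 was tested only because it was high in nkd1-Ds. GH3, of the family that joins auxin or jasmonate to amino acids, stood at 1.10, 1.09, 9.80 and 1.07 RPKM in WT and 29.1, 25.7, 22.3 and 23.03 RPKM in those labelled nkd1-Ds. WT replicate 3 lay well above the other WT libraries for GH3 but below all 4 mutant libraries. Yucca6, of auxin synthesis, fell by 0.95 ± 0.102. TAR3, also of auxin synthesis, fell by 0.32 ± 0.105 with overlapping groups. Its sign changed with total-reads scaling, and its call was lost outside zeins, after quantile normalization and without replicate 3 of either group.

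The ethylene and jasmonate list had 12 of 26 genes higher and 3 lower (21 and 1 after scaling by total reads); their median was 0.26 relative to all genes. The count leans on the filter: 18 further members were too low to test, and 7 of the 12 that rose, lox3, TIFY2, TIFY1 and acs7 among them, were under 1 RPKM in WT and were tested only because they were high in nkd1-Ds. lox3, a lipoxygenase gene of jasmonate synthesis, stood at 0.238, 0.131, 0.471 and 0.356 RPKM in WT and 3.24, 2.41, 3.09 and 2.46 RPKM in those labelled nkd1-Ds. TIFY2 and TIFY1, of the family of jasmonate response repressors, rose from 0.0424 to 1.76 RPKM and from 0.119 to 1.18 RPKM. acs7, for the ACC synthase step of ethylene synthesis, was highest in replicate 1 of the libraries labelled nkd1-Ds, at 3.62, 1.57, 1.83 and 1.94 RPKM against 0.843, 0.801, 0.371 and 0.422 RPKM in WT. aos1, an allene oxide synthase gene, rose by 0.60 ± 0.0939, and lox12 fell by 0.85 ± 0.156 (limma adjusted p = 4.53e-04).

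AP2 and ethylene response factor genes followed the same lean: 11 of 22 rose and 1 fell, and 18 were higher with total-reads scaling. dbf2 stood at 1.99, 1.82, 1.60 and 1.28 RPKM in WT and 6.13, 5.28, 7.58 and 6.29 RPKM in those labelled nkd1-Ds (log2 1.45 ± 0.177, limma adjusted p = 1.49e-05). EREB109 rose from 13.5 to 30.1 RPKM and EREB179 from 5.62 to 12.8 RPKM, and EREB26 was the 1 that fell, by 1.06 ± 0.138.

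Abscisic acid and desiccation genes leaned lower, with 10 of 21 lower and 4 higher, but with total-reads scaling the list turned, to 4 lower and 9 higher. SnRK2.5, of the kinase family that passes on the abscisic acid signal, stood at 20.1, 21.7, 21.1 and 22.3 RPKM in WT and 4.41, 4.39, 3.40 and 4.27 RPKM in those labelled nkd1-Ds (log2 -2.13 ± 0.0734, limma adjusted p = 1.15e-10). An ID of the receptor gene PYL3 fell by 0.89 ± 0.117 and PYL8 by 0.65 ± 0.0741, the latter not called with total-reads scaling. A second ID named PYL3, GRMZM2G047677, was too low to test, at 0.245 RPKM in WT and 0.450 RPKM in those labelled nkd1-Ds. An ID carrying the name aba1 fell from 3.19 to 0.419 RPKM, and the ID named dehydrin7 rose from 0.854 to 4.34 RPKM. vp1, the viviparous1 regulator of maturation, fell from 1.57 to 0.857 RPKM, a call lost with total-reads scaling. Of the 10 falls 3, aba1 and vp1 among them, were tested through WT only. Of the 4 rises 1, dehydrin7, was tested through nkd1-Ds only. A further 8 members were too low to test, some with higher and some with lower means in nkd1-Ds.

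For gibberellin and germination enzymes 4 of 6 genes rose and 1 fell, where 26.9% of all genes rose and 29.5% fell. An amylase gene, Amy2, went from near 0 to 14.8, 13.7, 17.4 and 16.1 RPKM, and no library of nkd2-Ds passed 0.0613 RPKM. Amy2 was tested only because it was high in nkd1-Ds. ccp1, a cysteine protease gene, stood at 30.4, 29.1, 27.8 and 21.4 RPKM in WT and 85.9, 74.8, 83.1 and 72.4 RPKM in those labelled nkd1-Ds (log2 1.51 ± 0.103, limma adjusted p = 8.15e-08). D8, a DELLA repressor of the gibberellin response, rose from 1.17 to 3.14 RPKM. an1, for an early step of gibberellin synthesis, stood at 7.55, 7.35, 7.36 and 8.34 RPKM in WT and 1.157, 2.21, 1.89 and 1.94 RPKM in those labelled nkd1-Ds, without overlap. Of 12 cytokinin genes 1 rose and 4 fell (7 and 1 after scaling by total reads), led by the phosphotransfer genes HP3 (log2 -0.69 ± 0.0613) and HP1 (log2 -0.56 ± 0.111, not called with total-reads scaling).

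Other families of transcription factors showed no common direction. Of 21 MYB genes 6 rose and 8 fell, of 23 bZIP genes 4 and 7, of 17 homeobox genes 7 and 4, of 11 NAC genes 3 and 2, and of 9 MADS genes 3 and 2. For WRKY genes the counts were 2 and 2 of 7, and for bHLH genes 1 and 3 of 11. With total-reads scaling, which raised the median of all genes, the MYB counts were 13 and 2 and the bZIP counts 16 and 0. Those of homeobox, NAC and bHLH genes were 13 and 1, 9 and 1, and 7 and 1. Medians relative to all genes moved little, from 0.02 to -0.05 for MYB and from 0.003 to 0.02 for bZIP genes. Of the 6 MYB rises 4 were tested through nkd1-Ds only, and of the 8 falls 3 through WT only. Both WRKY falls were tested through WT only, and 1 of the 2 rises through nkd1-Ds only. NF-YA4 stood at 1.69, 2.01, 2.22 and 2.11 RPKM in WT and 0.145, 0.108, 0.472 and 0.134 RPKM in those labelled nkd1-Ds, and NF-YA11 fell from 1.82 to 0.233 RPKM. Both are subunits of the CCAAT-binding factor NF-Y, of which 3 genes rose and 3 fell among 9. Of those 3 falls 2 were tested through WT only.

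Single regulators differed clearly. Opaque-2, the bZIP activator of zein genes, stood at 277, 272, 255 and 254 RPKM in WT and 371, 371, 358 and 387 RPKM in those labelled nkd1-Ds, a rise of 0.49 ± 0.102 (limma adjusted p = 0.00115). nac4 fell from 345 to 208 RPKM (not called with total-reads scaling), whereas NRP1, another NAC gene, rose from 189.9 to 300.4 RPKM. MADS11 rose from 10.1 to 24.9 RPKM and NAC61 from 4.09 to 8.08 RPKM. HDZIV6_OCL6, of the outer cell layer homeobox class, stood at 0.374, 0.271, 0.410 and 0.380 RPKM in WT and 2.65, 2.86, 2.95 and 2.01 RPKM in those labelled nkd1-Ds. MYB83 fell by 1.43 ± 0.165 and MYB112 rose by 1.17 ± 0.126.

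Of 24 glutathione and peroxide genes 8 rose and 8 fell, near the shares over all genes of 26.9% and 29.5%, and 17 were higher with total-reads scaling. Of the 8 that rose, 4 passed the filter through nkd1-Ds alone. Glutathione S-transferases attach glutathione to reactive compounds. gst19 stood at 0.844, 0.743, 0.406 and 0.532 RPKM in WT and 9.40, 9.24, 10.7 and 10.1 RPKM in those labelled nkd1-Ds (log2 2.74 ± 0.107, limma adjusted p = 3.83e-10). gst41 stood at 0.635, 0.535, 0.265 and 0.416 RPKM in WT and 10.3, 7.52, 7.43 and 8.39 RPKM in those labelled nkd1-Ds. gst23 had no read in WT replicates 2 and 3, at most 0.0527 RPKM in the others, and 3.34, 2.71, 3.40 and 2.81 RPKM in those labelled nkd1-Ds. Against these, gst31 stood at 25.6, 26.4, 24.2 and 22.7 RPKM in WT and 7.49, 8.82, 6.40 and 7.19 RPKM in those labelled nkd1-Ds, a fall of 1.61 ± 0.101. The ID named Cat0 fell from 3.47 to 0.294 RPKM.

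Of 17 defence and seed protection genes 5 rose and 5 fell, near the shares over all genes of 26.9% and 29.5%. mir2, a cysteine protease gene, stood at 1.80, 1.22, 1.43 and 1.34 RPKM in WT and 7.19, 7.22, 6.91 and 6.38 RPKM in those labelled nkd1-Ds (log2 1.70 ± 0.103, limma adjusted p = 2.92e-08). PR10, a pathogenesis-related protein gene, rose from 5.16 to 16.6 RPKM, and rip1, for a ribosome-inactivating protein of the endosperm, fell from 206 to 106 RPKM. For calcium signalling 5 of 16 rose and 7 fell, with an ID named calmodulin falling from 23.9 to 9.76 RPKM and CBL5, a calcineurin B-like sensor gene, rising from 0.182 to 1.44 RPKM. After scaling by total reads the counts were 10 higher and 2 lower for defence and 9 and 2 for calcium. Medians relative to all genes were then 0.12 for defence and -0.03 for calcium, against 0.08 and -0.11 as deposited. The photoreceptor gene PhyB2 fell from 3.45 to 1.28 RPKM.

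Aquaporins, the water channels of membranes, fell in 7 of 12 cases and rose in 3, while total-reads scaling gave 3 falls and 5 rises. Their median relative to all genes was -0.29 as deposited and -0.18 with total-reads scaling. Of the 7 falls 3 were tested through WT only, and of the 3 rises 1 through nkd1-Ds only. A further 6 members were too low to test. The 3 strongest falls were of the tonoplast class. TIP3-1 stood at 114, 92.8, 66.3 and 71.8 RPKM in WT and 12.03, 9.25, 17.8 and 23.5 RPKM in those labelled nkd1-Ds, and TIP3-2 fell from 2.39 to 0.412 RPKM. TIP4-4 fell by 1.17 ± 0.124. NIP1-1, of another class, was at most 0.0694 RPKM in WT and stood at 3.096, 3.37, 3.49 and 3.03 RPKM in those labelled nkd1-Ds (log2 2.03 ± 0.0691, limma adjusted p = 1.03e-10).

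Among 12 oil and lipid genes 3 rose and 5 fell, where 26.9% of all genes rose and 29.5% fell. Oleosins coat oil bodies, which are found in aleurone and embryo. ole17 stood at 32.1, 30.5, 33.7 and 30.3 RPKM in WT and 6.42, 6.14, 4.63 and 4.04 RPKM in those labelled nkd1-Ds. In nkd2-Ds it was 39.7, 57.2, 83.6 and 93.9 RPKM, above every WT library. A second oleosin gene, GRMZM2G333069, stood at 5.55 ± 0.290 RPKM in WT, 1.81 ± 0.198 RPKM in those labelled nkd1-Ds and 14.4 ± 3.25 RPKM in nkd2-Ds. The direct differences between the mutants passed for both, at log2 -3.41 and -2.44 (limma adjusted p = 1.06e-07 and adjusted p = 2.69e-08). After scaling by total reads the oil list had 4 genes higher and 2 lower. For nitrogen metabolism 2 of 11 genes rose and 3 fell (8 and 1 by that scaling), led by the glutamine synthetase gene gln2, which stood at 75.4, 63.4, 74.9 and 60.1 RPKM in WT and 11.1, 10.7, 16.5 and 15.4 RPKM in those labelled nkd1-Ds.

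Carotenoid genes fell in 5 of 5 cases (3 with total-reads scaling). HYD1 and HYD3 code for beta-carotene hydroxylases, which turn carotenes into xanthophylls. HYD1 stood at 5.38, 5.38, 6.30 and 5.85 RPKM in WT and 1.84, 1.87, 1.42 and 1.99 RPKM in those labelled nkd1-Ds. HYD3 stood at 94.4, 90.96, 90.2 and 81.3 RPKM in WT and 8.41, 9.54, 7.64 and 8.92 RPKM in those labelled nkd1-Ds. In nkd2-Ds they were 1.77 ± 0.635 and 6.96 ± 1.03 RPKM. The direct difference between the mutants did not pass for HYD1 (limma adjusted p = 0.880) and passed narrowly for HYD3 (log2 0.28, limma adjusted p = 0.0307). y1, the phytoene synthase gene of yellow kernels, fell from 12.4 to 5.09 RPKM. dxs2 and Hds1, of the plastid isoprenoid pathway, fell by 0.45 ± 0.140 and 0.34 ± 0.0825, but neither was called with total-reads scaling, where Hds1 changed sign.

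Markers of cell types were measured beside these groups. Starchy endosperm markers had 8 of 14 tested members lower and 1 higher, but 2 lower and 6 higher with total-reads scaling. All 15 matched markers summed to 103600 to 123200 RPKM in WT and 70330 to 81140 RPKM in those labelled nkd1-Ds. The median of the tested members relative to all genes was -0.53 as deposited, -0.44 with total-reads scaling and 0.02 after quantile normalization. Aleurone markers had 4 of 10 tested members lower and 2 higher, nkd1 and nkd2 being among the 4. The summed level of all 11 matched markers was 217 to 237 RPKM in WT and 143 to 177 RPKM in those labelled nkd1-Ds. Without nkd1 and nkd2 the sum was 150.5 to 164.5 RPKM in WT and 129 to 161 RPKM in those labelled nkd1-Ds, so the groups overlapped. Those sums include r1, called higher beside dek1, which went from 0.0690 to 21.1 RPKM, so the overlap depends on it. r1 was tested only because it was high in nkd1-Ds. The other markers called lower were ole17, which fell from 31.7 to 5.30 RPKM, and vp1, which was tested through WT only. dek1 and cr4, which act in aleurone fate, were 12 ± 0.435 and 1.56 ± 0.0969 RPKM in WT and 16.5 ± 1.30 and 1.71 ± 0.0993 RPKM in those labelled nkd1-Ds, a called rise for dek1 (log2 0.43 ± 0.0883) and no call for cr4. Sal1 was not called either (log2 -0.08 ± 0.0582). c1, a regulator of aleurone pigment, was under 1 RPKM and not tested.

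Among markers of the basal transfer cells and the region around the embryo, 1 of 8 was higher and 0 were lower. The 1 was MRP1, the MYB-related regulator of transfer cell genes, at 1.88, 2.33, 1.92 and 1.27 RPKM in WT and 11.02, 13.7, 12.3 and 11.9 RPKM in those labelled nkd1-Ds (log2 2.22 ± 0.117, limma adjusted p = 7.55e-09). Genes of transfer cell products were not called: betl4 was 31.04 ± 16.8 RPKM in WT and 29.9 ± 15.6 RPKM in those labelled nkd1-Ds, and MEG1 7.81 ± 4.50 and 4.45 ± 1.26 RPKM. The summed level of all 10 matched markers, 2 of them too low to test, overlapped widely between the groups. It was 73.3 to 345 RPKM in WT and 100.5 to 204 RPKM in those labelled nkd1-Ds. Of the 2 embryo markers tested, lg3 rose from 2.64 to 6.71 RPKM and wox2A was not called. Pericarp and green tissue markers summed to 1.74 to 2.59 RPKM in WT and 2.96 to 3.53 RPKM in those labelled nkd1-Ds. The part of these marker levels in the results was not tested.

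Most genes had no name, whether they changed or not. Of the 2281 genes called at 2-fold or more, 173 had a name in the RefSeq table (7.58%), against 1632 of all 26281 tested (6.21%). Among the 30 largest rises 7 were named and among the 30 largest falls 0. 57 tested genes had no read in any WT library and 24 had none in any library labelled nkd1-Ds. kin1 was one of the former: it had 0 reads in all WT libraries and stood at 39.9, 36.7, 44.5 and 28.8 RPKM in those labelled nkd1-Ds, which is at least 549-fold higher if 3 reads are taken as the floor of each WT library. AUX9, AUX1 and ZIP4 were also among the 15 largest named rises. AUX9 stood at 0.0360, 0.0659, 0.0749 and 0 RPKM in WT and 8.03, 5.99, 6.09 and 6.14 RPKM in those labelled nkd1-Ds, AUX1 rose from 3.83 to 30.6 RPKM, and ZIP4 rose from 2.48 to 23.3 RPKM. ERTC rose by 4.05 ± 0.272, TMT by 3.71 ± 0.120 and BURP4, of the BURP domain family, by 3.13 ± 0.159.

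Among the largest named falls, lrk1 stood at 2.91, 2.61, 4.61 and 4.21 RPKM in WT and 0, 0.0121, 0.0115 and 0 RPKM in those labelled nkd1-Ds. It was 0.0568 ± 0.0109 RPKM in nkd2-Ds, and the direct difference between the mutants did not pass (log2 -0.07, limma adjusted p = 0.677). HO1, a heme oxygenase gene, stood at 5.58, 3.70, 4.99 and 6.14 RPKM in WT and 0.346, 0.324, 0.337 and 0.367 RPKM in those labelled nkd1-Ds, and 0.615 ± 0.241 RPKM in nkd2-Ds. A pair of IDs that both carry the name TPS20-Del fell from 2.91 to 0.219 RPKM and from 2.89 to 0.219 RPKM; their values are nearly the same in every library, so they may count the same reads.

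The following unnamed genes were picked after their values were seen. GRMZM2G031688 had the largest fall of all, from 48.2 ± 6.26 RPKM in WT to 0.189 ± 0.0629 RPKM in those labelled nkd1-Ds, with 0.178 ± 0.111 RPKM in nkd2-Ds. The largest rise of all was of GRMZM2G176355, which had no read in WT and stood at 45.99 ± 7.32 RPKM in those labelled nkd1-Ds and 47.3 ± 5.52 RPKM in nkd2-Ds. GRMZM2G096713, by contrast, rose from 0.0244 ± 0.0489 to 45.7 ± 5.66 RPKM and had no read in nkd2-Ds. GRMZM2G087103 fell from 16.6 ± 0.511 to 0.623 ± 0.321 RPKM and was 17.17 ± 3.03 RPKM in nkd2-Ds. Both mutants are set against the same WT libraries, so these values are given side by side only.

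Strong changes were more frequent in the 20 genes nearest nkd2 than over all genes, and other places were described only in fixed runs of 25 genes. Gene order was taken from the RefSeq table of assembly Zm-B73-REFERENCE-NAM-5.0, in which 12019 tested genes could be placed, so unplaced genes may lie between. Within 10 placed genes on either side of nkd2, 7 of 20 genes were called at 2-fold or more (35.0%), against 803 of all 12019 placed genes (6.68%). Within 25 on either side there were still 7, of 50 (14.0%), within 50 there were 10 of 100 and within 100 the share was 9.5%, against 9.42% for the whole chromosome of nkd2. Beside nkd1 the count was 2 of 20 within 10 placed genes. When all placed genes were divided into 475 runs of 25, the median run held 1 such gene, the 95th percentile was 4 and the highest count 8 (32.0%). The run that holds nkd2 had 6, itself included, and 11 runs that hold neither nkd1 nor nkd2 had 6 or more. That run ends 5 places past nkd2, so r1 and GRMZM5G843302, described below, fall outside it. These runs are unlike the 20 genes centred on nkd2, so they cannot tell whether other places are as dense.

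The 7 went both ways. The direct neighbour of nkd2, GRMZM2G017414, rose from 0.525 ± 0.0793 to 5.44 ± 0.998 RPKM and was 4.86 ± 0.571 RPKM in nkd2-Ds. GRMZM2G414915, 7 places away, rose from 1.68 ± 0.174 to 11.7 ± 1.30 RPKM and was 2.81 ± 0.596 RPKM in nkd2-Ds. GRMZM6G798998 and GRMZM2G301485 rose from 10.2 to 22.1 RPKM and from 0.358 to 1.86 RPKM. HYD3 lies 10 places to one side. To the other side r1, a bHLH regulator of anthocyanin genes, lies 8 places away, and stood at 0.0303, 0.139, 0.0631 and 0.0438 RPKM in WT, 21.2, 20.7, 21.02 and 21.5 RPKM in those labelled nkd1-Ds and 9.32, 7.88, 10.8 and 3.45 RPKM in nkd2-Ds. GRMZM5G843302, 10 places away, fell from 8.92 ± 1.30 to 3.67 ± 0.792 RPKM. Beside nkd1, GRMZM2G095892 fell from 15.5 to 6.46 RPKM and GRMZM2G086210 rose from 0.169 to 1.56 RPKM. 

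**Figure D5:**
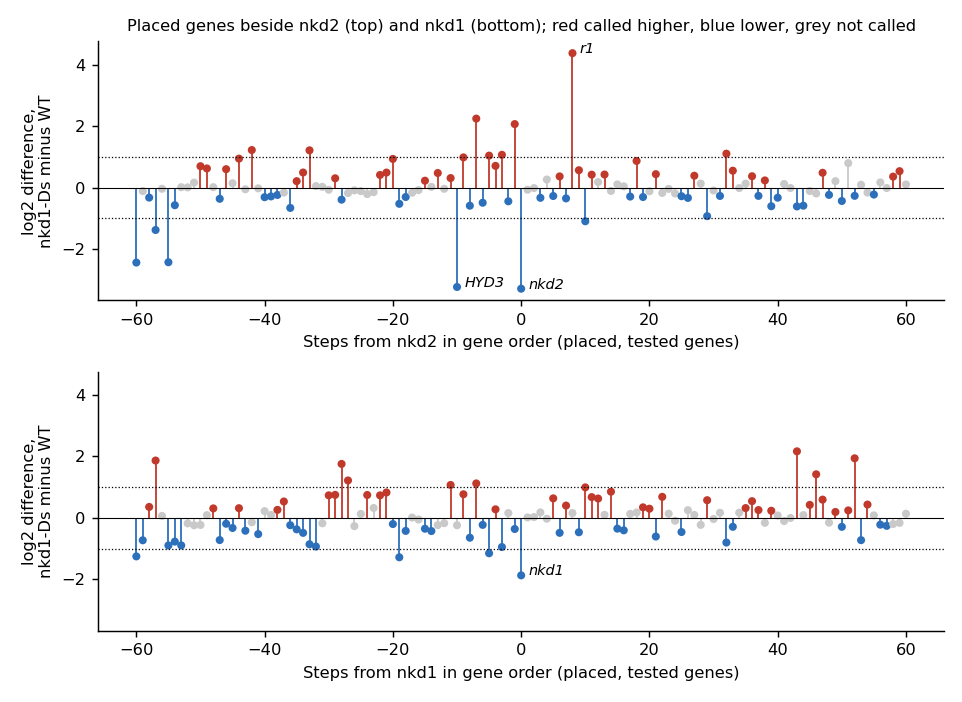
Difference of log2(RPKM + 1), nkd1-Ds minus WT, of placed and tested genes by their steps in gene order from nkd2 (top) and nkd1 (bottom); red is called higher, blue called lower, grey not called, and dotted lines mark a 2-fold difference. Beside nkd2, 7 of the 20 nearest genes pass a dotted line and are called, and beside nkd1 2 of 20.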

How the data were processed

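Poly(A)-selected RNA of whole endosperm was sequenced from strand-marking libraries, per the labels, and the authors deposited 1 table per library, 12 in all, with an RPKM value for each of 34348 gene IDs. Per the submitters' processing notes, FastQC, TopHat2 2.1.1, featureCounts and Cufflinks 2.2.1 were used. For their roles, the genome build, the annotation and the use of strand in counting, nothing is stated in the labels or headers, so overlapping and antisense genes may share reads.

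Groups were taken from the sample labels. Whole reads were recovered from the steps between deposited values for 34307 of 34307 genes above 0 (within 0.02 reads), which gave depth and shares of reads; intervals and floors cover counting error only. Differences were tested with limma 3.58.1 in R 4.3.3 (mean-variance trend, empirical Bayes, two-sided) on log2(RPKM + 1) in 1 fit of all 12 libraries, without a replicate block, with Benjamini-Hochberg adjustment over the 26281 genes whose mean reached 1 RPKM in WT or nkd1-Ds. The fit was tested on simulated data with 50 changed genes at each fold over 25341 genes, and recovered 6% of 1.25-fold, 52% of 1.5-fold, 82% of 2-fold and 98% of 4-fold changes, with 5.56% of its calls on unchanged genes. In the data 14823 genes were called, so the adjustment is less strict there and these rates do not carry over. The simulated spreads were drawn toward their median, and no shift of scale between groups was simulated. Nothing says that the libraries came from separate plants beyond the name biological replicate, so p-values measure the spread between these libraries.

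Names and gene order came from the RefSeq table of assembly Zm-B73-REFERENCE-NAM-5.0, by ID only. Of the 34348 IDs 14774 matched 1 RefSeq gene and 5354 had a symbol or alias. The named genes are nkd1 and nkd2, the 15 largest named rises and falls among called genes without overlap, the 4 called members of each list with the largest difference, members needed as not called, and genes called at 2-fold or more within 10 places of nkd1 or nkd2. Members and lists were chosen with earlier results of these data known. Alternatives were a pseudocount of 0.1, no filter, a minimum of 5 RPKM, scaling by total reads with or without zeins, quantile normalization, only the 8 libraries compared, voom on recovered reads, a replicate block, averaged WT pairs, and leaving out each library. Promoter motifs and sequences were not analysed here.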

Additional observations from a re-analysis of the deposited data

Results flagged for a closer look

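In 21 of 282 groups of 4 values checked, the highest or lowest library lay far from the other 3 by Dixon's 95% criterion; chance gives about 1 in 20 groups, or 14.1 here. In WT the library far from the rest was at 7.89 RPKM for AUX1, 9.80 for GH3, 0.475 for BURP4, 2.80 for Cat0, 0.0980 for TIFY2, 5.82 for adh2 and 0.0562 for cycD1. Also in WT, it was at 11.3 RPKM for dek1, 929 for gpc3, 14.5 for y1, 13.5 for GRMZM2G095892 and 0.0978 for GRMZM2G096713. In nkd1-Ds the library far from the rest was at 35.8 RPKM for adh2, 14.1 for expA4, 3.40 for SnRK2.5, 8.03 for AUX9 and 26.3 for ZIP4. It was at 0.449 RPKM for EREB26, 0.472 for NF-YA4, 2.29 for HP3 and 58.7 for his1a. For both AUX1 and GH3 it was WT replicate 3.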

How the results depend on the processing

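Scaling decided the direction of the counts. Total-reads scaling gave 16633 genes called higher and 2003 lower, 3192 and 527 of them by 2-fold or more. Scaled by reads outside the zeins the counts were 9849 and 5193, with 1523 and 857 at 2-fold. A pseudocount of 0.1 gave 2081 and 1870 genes at 2-fold, and voom on recovered reads 2251 and 1929. A minimum of 5 RPKM, which tests fewer genes, gave 8961 calls, 4215 higher and 4746 lower, with 688 and 652 at 2-fold. The replicate block gave 14241 calls, and replicates with 1 number did not deviate together (r from -0.09 to 0.03), so the number does not pair them. With the close WT pairs averaged 12514 genes were called, 5927 higher and 6587 lower. Leaving out 1 library gave 13606 to 14292 calls, 6491 to 6765 higher and 7098 to 7540 lower, 1178 to 1228 and 1055 to 1127 at 2-fold, and a zein share difference of -17.7 to -15.6 points.

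Of 140 genes named, 134 were called, and 122 of these kept direction and call under all 18 alternatives that tested them; a minimum of 5 RPKM left 41 untested. Signs changed with total-reads scaling for HSF29 (log2 0.11), Hds1 (0.0527), Hsf12 (0.0775), Sal1 (0.45), TAR3 (0.22), his1a (0.28) and orc3 (0.0812). The scale of total RNA per endosperm cannot be had from these values.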
